A study of Mus musculus with 24 samples.

Results

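The peroxiredoxins and the enzymes that keep glutathione and thioredoxin working were followed through macrophages of diabetic and control mice. The set holds 10 genes, Prdx1 to Prdx6, Gpx1, Gpx4, Gsr and Txn1, which were taken by name from the 13568 genes of the deposited expression table. All 10 were found, and all 10 were among the 11710 genes with enough reads to be tested.

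The libraries came from bone marrow-derived macrophages, which are grown from marrow cells in medium conditioned by L929 cells, here for 7 days. The marrow donors were male C57Bl/6 mice, 6 with diabetes induced by streptozotocin and 6 controls without diabetes. Every culture of both phenotypes was kept at 5 mmol/L glucose, and streptozotocin makes mice diabetic by destroying pancreatic beta cells, so a lasting effect of the drug on marrow and an effect of diabetes cannot be told apart. Cells of each mouse were either left unstimulated or given 100 ng/mL lipopolysaccharide, a bacterial cell wall component, with 10 ng/mL interferon-gamma for 6 h, which made 4 groups of 6 RNA-seq libraries.

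Peroxiredoxins remove hydrogen peroxide and organic peroxides with a reactive cysteine, and most of them are then reduced by thioredoxin. Glutathione peroxidases do the same work with glutathione, whose oxidised form is recycled by glutathione reductase at the expense of NADPH. Macrophages that meet microbial products make superoxide and nitric oxide, and these enzymes protect the cell that makes them and also shape signalling by peroxide.

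Read totals ran from 16754771 to 34130060 per library. Levels are given in CPM, as the lowest, median and highest of 6 libraries. CPM here means reads scaled by the authors for library size and for a further factor of each library. That factor was 1.23 to 1.29 for unstimulated and 0.73 to 0.83 for stimulated libraries, so CPM is not a share of total reads. Changes are given as the log2 difference of CPM + 1 ± SE with an adjusted p from limma, and adding 1 makes them smaller for low genes. For genes near 0 CPM the size of a change depends strongly on this choice. The rise of the neutrophil marker S100a8 in control cells was 3.20 to 3.86 over the scalings, but 1.84 to 6.28 over all alternatives tried. All 8 macrophage markers were found, and their summed level was 14225 to 19707 CPM over the 24 libraries. Single markers differed between phenotypes: at rest 4 of the 8 were lower in diabetic cells (Fcgr1 by -1.17, Adgre1 by -0.36, Cd14 by -0.34 and Cd68 by -0.17, log2 scale) and Lyz2 was higher (0.24). After stimulation Fcgr1 (-0.43), Cd68 (-0.42) and Adgre1 (-0.22) were lower and Mertk was higher (0.16). Of all genes 19.3% were called at rest and 51.7% after stimulation. With quantile normalization Adgre1 after stimulation was at -0.04 (adjusted p = 0.36). Within the last 12 columns of the table Fcgr1 after stimulation and Cd14 at rest did not pass (adjusted p = 0.053 and 0.075). Of other cells, none of 8 erythroid markers was analysed here, the T and NK cell marker Klrb1c stayed at or below 1.20 CPM, and the fibroblast marker Dcn at or below 1.03 CPM. Of 5 B cell markers 2 were found, and at rest they went opposite ways between phenotypes. Ighm ranged at rest from 5.92 to 19.5 CPM for control and from 23.3 to 57.3 CPM for diabetic mice. After stimulation it ranged from 0.727 to 1.91 and from 2.58 to 5.04 CPM. Cd79b stayed at or below 1.65 CPM and was lower in diabetic cells at rest (-0.31, adjusted p = 0.020). That call was lost within the first 12 and within the last 12 columns of the table (adjusted p = 0.057 and 0.38). It was also lost with 0.25 added to CPM in place of 1 (adjusted p = 0.052) and without any one of 3 of 12 libraries (adjusted p up to 0.074). The sum of S100a8 and Mmp8, 2 of 9 neutrophil markers, ranged at rest from 14.3 to 23.3 CPM for control mice and from 34.1 to 43.7 CPM for diabetic mice, and after stimulation from 28.8 to 34.9 and from 38.9 to 50.9 CPM. Mmp8 was higher in diabetic cells in both states (0.86 and 0.54). S100a8 was higher at rest (0.45), though not with 5 added to CPM in place of 1 (0.12, adjusted p = 0.060), and did not pass after stimulation. With the stimulus S100a8 rose (3.61 in control and 3.33 in diabetic cells), while Mmp8 fell in diabetic cells (-0.45). The fall of Mmp8 did not pass under median-of-ratios scaling (-0.18, adjusted p = 0.072). The B cell and neutrophil markers moved with the phenotype, except Cd79b and S100a8 after stimulation. Calls of Ighm, Cd79b and S100a8 did not hold under every alternative. Their part and that of the macrophage markers in the differences between phenotypes below was not tested. In bulk RNA, a change in the share of a cell type and a change in RNA per cell cannot be told apart.

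The stimulus moved most genes of the macrophage, so the counts of members are read against all genes. In control cells 7 of the 10 members rose and 3 fell, while 34.9% of all tested genes rose and 56.4% fell (91.3% in either direction). In diabetic cells 6 rose, 3 fell and Prdx4 did not pass the test, against 35.2% and 55.1% of all genes (90.3% in either direction). The median change of the 10 members was 0.41 in control and 0.35 in diabetic cells, and that of all genes was -0.30 and -0.25. Of the changes with stimulation, those of Prdx2, Prdx4 and Prdx6 turned downward in both phenotypes when libraries were scaled by total reads, as did those of Prdx2 and Prdx4 with quantile normalization.

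Phenotypes differed for 5 members in each state. Without stimulation 4 members were higher in diabetic cells (Prdx1, Prdx6, Gsr and Txn1), 1 was lower (Prdx5) and 5 did not pass, against 9.16% of all genes higher and 10.2% lower (19.3% in either direction). After stimulation 4 members were higher (Prdx1, Prdx5, Prdx6 and Gsr), Gpx1 was lower and 5 did not pass, against 29.8% higher and 21.9% lower (51.7% in either direction). This split depended on the scaling, with 2 members higher and 2 lower under median-of-ratios scaling, 6 and 1 by total reads and 5 and 1 with quantile normalization, and it was 3 and 1 within the first 12 and 2 and 2 within the last 12 columns of the table, each of which holds 3 mice of each phenotype. The response to the stimulus itself differed between phenotypes for 3 members, larger for Prdx5 and Gsr and smaller for Txn1, against 19.6% and 12.4% of all genes (32.0% in either direction). The median differences of the members were 0.05 without and 0.03 with stimulation, beside -0.00 and 0.03 over all genes, and that of the difference in response was -0.06 beside 0.03.

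**Figure D1:**
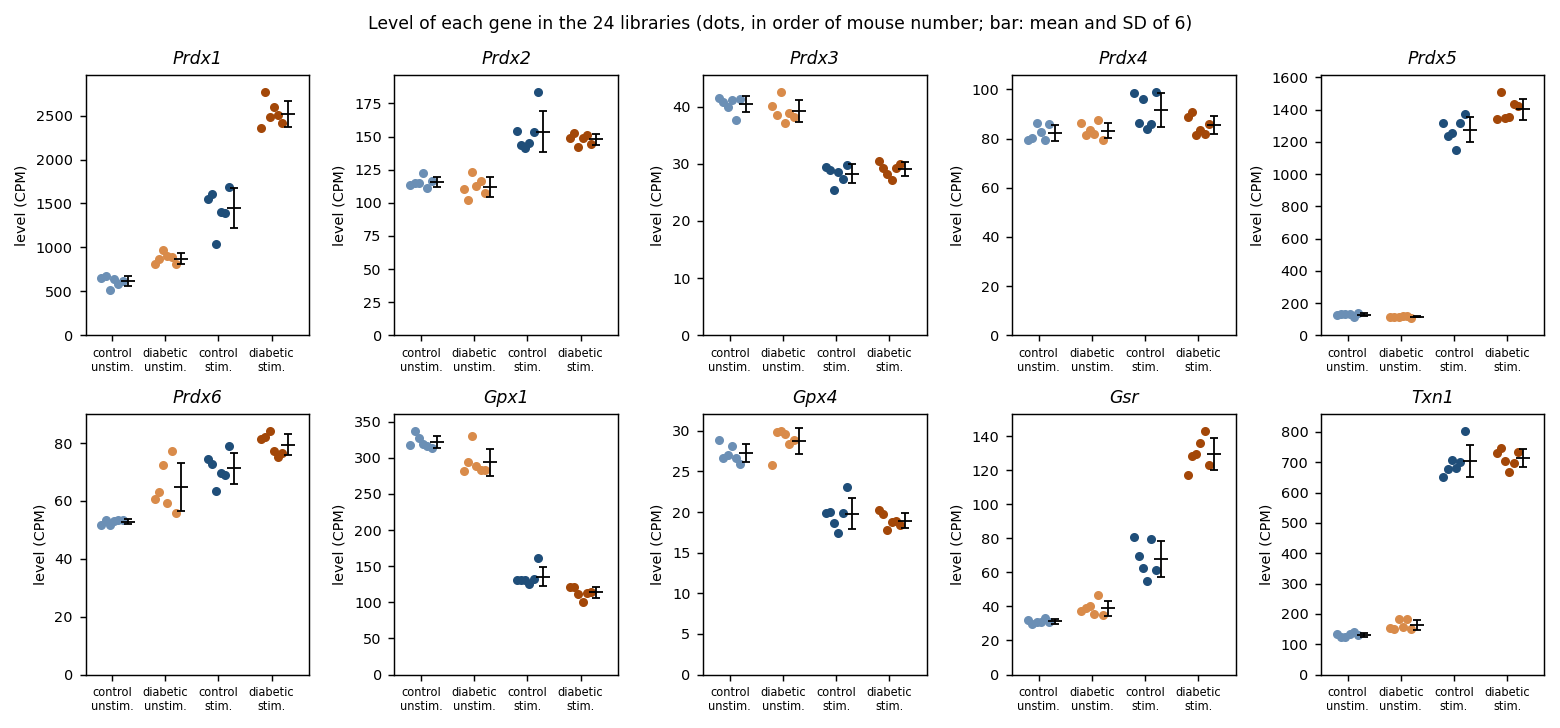
Level of each of the 10 members in every library, in CPM on a linear axis from 0, with 6 libraries per group as dots and their mean ± SD as bars, for control and diabetic macrophages without and with stimulation. Prdx1 in stimulated diabetic libraries sits between 2363 and 2770 CPM, above the 1040 to 1689 CPM of stimulated control libraries.

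The 10 genes together took a median of 0.196% of all reads in unstimulated control, 0.229% in unstimulated diabetic, 0.314% in stimulated control and 0.429% in stimulated diabetic libraries. These shares are of total reads, without the further factor that CPM holds. Levels of different genes are compared here only per kilobase of exon, counting all annotated exon bases of a gene. For Prdx1 these are 3043 bases against 2294 in its longest coding transcript, and for Prdx5 2139 against 1262. For Txn1 both are 1051 bases. The order of genes below holds for this length alone, and an order by transcript length was not tested. Per kilobase, unstimulated control cells held most Gpx1 (223 ± 6.05 CPM per kb, SD, n = 6) and Prdx1 (202 ± 19.1 CPM per kb), whose ranges overlapped, followed by Txn1 (124 ± 6.01 CPM per kb). In unstimulated diabetic cells Prdx1 stood first at 287 ± 20.6 CPM per kb, above Gpx1 at 204 ± 12.8 CPM per kb without overlap. After stimulation Txn1 (670 ± 49.5 CPM per kb), Prdx5 (596 ± 36.2 CPM per kb) and Prdx1 (476 ± 75.9 CPM per kb) led in control cells, each overlapping the next. In stimulated diabetic cells Prdx1 led at 829 ± 48.2 CPM per kb without overlap, ahead of Txn1 (679 ± 28.6 CPM per kb) and Prdx5 (656 ± 30.4 CPM per kb), which overlapped. Prdx6 and Gsr were lowest in both unstimulated groups with overlapping ranges, at 10.99 and 11.3 CPM per kb in control cells, and in diabetic cells Gsr also overlapped Gpx4, and Gpx4 was lowest in both stimulated groups at 11.5 and 10.99 CPM per kb, overlapping Prdx6 in control cells.

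**Figure D2:**
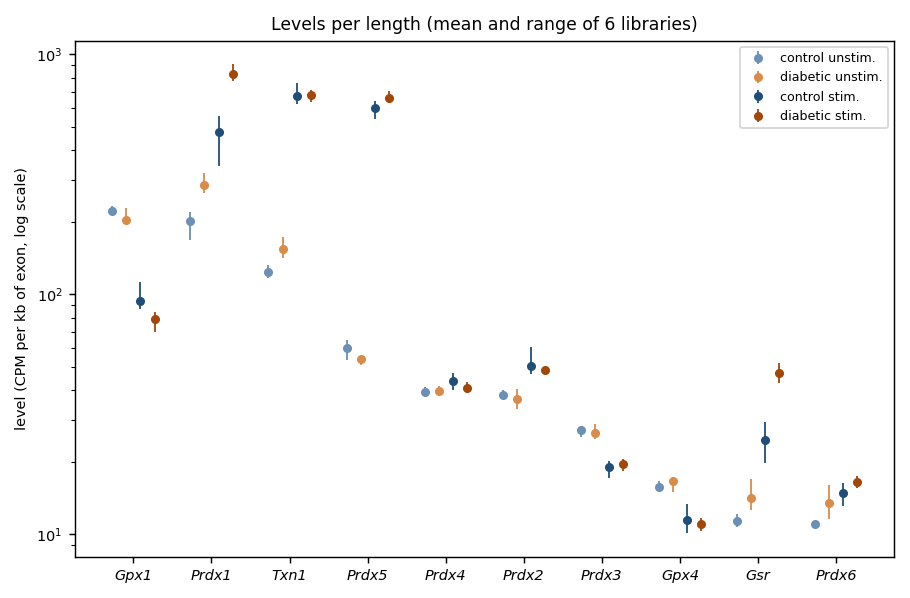
Mean level of each member per kilobase of annotated exon (CPM per kb, log axis) in the 4 groups, as the mean (dot) and range (bar) of 6 libraries. Gpx1 falls from 223 to 93.9 CPM per kb in control cells while Prdx5 goes from 60.0 to 596 CPM per kb.

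Prdx1 (ENSMUSG00000028691, chr4:116685544-116700822, plus strand, GRCm38), the abundant peroxiredoxin of the cytosol and nucleus, had the largest excess in unstimulated diabetic cells among the members. Without stimulation it was at 513, 628 and 673 CPM (lowest, median and highest) in control and at 806, 875 and 973 CPM in diabetic libraries. Every diabetic library was above every control library, and mouse 3 was lowest among the controls in both states. The difference was 0.51 ± 0.08 (adjusted p = 7.1e-05). With stimulation control libraries reached 1040, 1480 and 1689 CPM, and diabetic libraries 2363, 2494 and 2770 CPM. Here too the phenotypes did not overlap, and the difference was 0.81 ± 0.08 (adjusted p = 2.7e-08). It passed within the first 12 and within the last 12 columns of the table, at 0.68 and 0.95. Prdx1 rose by 1.23 ± 0.08 in control and 1.53 ± 0.08 in diabetic cells (adjusted p = 2.0e-13 and 1.6e-15), in all 6 mice of each phenotype, although with quantile normalization the control rise was 0.02 (adjusted p = 0.88). The responses differed by 0.31 ± 0.12 (95% interval 0.06 to 0.55), which did not pass (adjusted p = 0.052). With each mouse as a block, since both cultures of a mouse share a donor, the same difference passed (adjusted p = 0.0022). It did not pass within the last 12 columns (0.29, adjusted p = 0.28).

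The stretch before the first annotated exon of Prdx1 is shown because Prdx1 was the only one of the 8 members with a RefSeq promoter window (11 windows of 300 bases, GRCm38.p6; Prdx6 and Gsr not analysed here) in which the core of the antioxidant response element was found. This element is bound by NRF2, a transcription factor that controls many antioxidant genes. The letters searched on both strands were TGACNNNGC for this core, present in 12.4% of 32851 promoter windows, and TGANTCA for AP-1 sites, present in 7.81%. Capitals mark the matches, an AP-1 match 237 bases before the RefSeq start and, 133 bases before it, an element core on the minus strand that overlaps a second AP-1 match.
Prdx1, chr4:116685349-116685543, plus strand: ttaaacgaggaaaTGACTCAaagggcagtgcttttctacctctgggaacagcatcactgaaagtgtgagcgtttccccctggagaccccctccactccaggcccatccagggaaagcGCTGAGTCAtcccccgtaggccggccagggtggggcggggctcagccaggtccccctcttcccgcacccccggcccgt
The windows of the other 7 members, among them Txn1 and Prdx5, held neither motif. A match describes letters and is no evidence of binding.

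Prdx2 and Prdx6 are the other peroxiredoxins of the cytosol. Prdx2 (chromosome 8, 84969587 to 84974834), best known from red blood cells, was at 111, 115 and 122 CPM in unstimulated control and 102, 111 and 124 CPM in unstimulated diabetic libraries. After stimulation it was at 142, 150 and 184 CPM in control and 142, 149 and 153 CPM in diabetic libraries. Stimulated libraries were above unstimulated ones in both phenotypes, with 1 control library apart at the top, and the phenotypes overlapped in both states. The change with stimulation was 0.40 ± 0.05 in both phenotypes (adjusted p = 1.1e-08 in control and 1.2e-08 in diabetic cells), but it was -0.30 and -0.23 when scaled by total reads. Between phenotypes the difference was -0.05 ± 0.05 in each state, with 95% intervals of -0.15 to 0.05. Prdx2 shares 173 exon bases with Junb on the opposite strand, which went from 103 to 744 CPM in control and from 103 to 678 CPM in diabetic cells. It shares 177 with Rnaseh2a on that strand, which went from 25.5 to 15.7 CPM in control and from 26.7 to 17.9 CPM in diabetic cells. The kit marked strand, but how counting used strand was not given in the sources used here, and the share of Prdx2 reads that lie in these bases was not tested.

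Prdx6 (chromosome 1, 161240112 to 161251219), a peroxiredoxin with 1 active cysteine that also acts on phospholipids, was higher in unstimulated diabetic cells. It was at 51.6, 53.3 and 53.6 CPM in control and 55.8, 62.0 and 77.2 CPM in diabetic unstimulated libraries. All diabetic libraries lay above the narrow control range and were spread more widely among themselves. The difference was 0.28 ± 0.06 (adjusted p = 0.00078), and 0.16 within the first 12 columns, where it did not pass (adjusted p = 0.067). With stimulation the levels were 63.3, 71.2 and 78.9 CPM in control and 75.0, 79.3 and 84.1 CPM in diabetic libraries, which overlapped. The difference of 0.16 ± 0.06 passed (adjusted p = 0.028) but was lost within the first 12 and within the last 12 columns (adjusted p = 0.12 and 0.090), with median-of-ratios scaling (adjusted p = 0.14) and without any one of control libraries 3 and 5 and diabetic libraries 2 and 3 (adjusted p = 0.052 to 0.087). Prdx6 changed by 0.42 ± 0.06 with stimulation in control and 0.30 ± 0.06 in diabetic cells (adjusted p = 1.1e-07 and 3.1e-05), upward in 6 of 6 and 5 of 6 mice, but by -0.28 and -0.33 when scaled by total reads.

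Prdx3 and Prdx5 work in mitochondria, Prdx5 also in peroxisomes and the cytosol, and they moved in opposite directions. Prdx5 (ENSMUSG00000024953, chr19:6906697-6910106, minus strand) had the largest rise of all members. In control cells it went from 114, 130 and 138 CPM to 1149, 1286 and 1371 CPM, and in diabetic cells from 109, 116 and 119 CPM to 1344, 1389 and 1510 CPM. No stimulated library came near an unstimulated one. The rise was 3.30 ± 0.04 in control and 3.60 ± 0.04 in diabetic cells (adjusted p = 3.0e-31 and 4.7e-32), and it was 2.39 and 2.84 with quantile normalization, the smallest values over the 3 other scalings tried. Diabetic cells began lower, by -0.16 ± 0.04 (adjusted p = 0.014), and ended higher, by 0.14 ± 0.04 (adjusted p = 0.011), and control and diabetic ranges overlapped in both states. The responses differed by 0.29 ± 0.06 (adjusted p = 0.00081). Within the last 12 columns these 3 values were -0.06, 0.09 and 0.15 and did not pass (adjusted p = 0.69, 0.24 and 0.25), and the difference in stimulated cells was also lost with median-of-ratios scaling (0.08, adjusted p = 0.13). Prdx5 shares 409 exon bases with Trmt112 on the opposite strand, which stayed between 5.03 and 7.69 CPM on average in the 4 groups.

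Prdx3 (chromosome 19, 60864051 to 60874556), found in mitochondria alone, fell with stimulation. It was at 37.7, 40.9 and 41.5 CPM in control and 37.0, 38.7 and 42.6 CPM in diabetic cells at rest. After stimulation it was at 25.4, 28.8 and 29.8 CPM in control and 27.1, 29.2 and 30.5 CPM in diabetic cells. Stimulated and unstimulated libraries did not overlap, while the phenotypes did. The fall was -0.50 ± 0.04 and -0.42 ± 0.04 (adjusted p = 2.7e-12 and 1.4e-10), and under median-of-ratios scaling it was -0.17 and -0.15. Phenotypes differed by -0.04 ± 0.04 without and 0.04 ± 0.04 with stimulation, with 95% intervals of -0.13 to 0.04 and -0.05 to 0.12.

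Prdx4 (chromosome X, 155323918 to 155340754), the peroxiredoxin of the endoplasmic reticulum, stayed closest to its resting level with the deposited scaling, though not with any of the 3 other scalings. Control libraries were at 79.2, 81.5 and 86.3 CPM without and 83.9, 91.1 and 99.0 CPM with stimulation. Diabetic libraries were at 79.5, 82.6 and 87.3 CPM and 81.6, 84.8 and 90.8 CPM, so that all 4 groups overlapped. The change with stimulation was 0.15 ± 0.04 in control cells (adjusted p = 0.0019) and 0.04 ± 0.04 in diabetic cells (95% interval from -0.05 to 0.13), but it was -0.55 and -0.59 when scaled by total reads. The control change did not pass within the first 12 columns (adjusted p = 0.089). In stimulated cells the phenotypes differed by -0.10 ± 0.04 (adjusted p = 0.061), which passed under 7 of the alternatives, among them median-of-ratios scaling (-0.15, adjusted p = 0.0051).

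**Figure D3:**
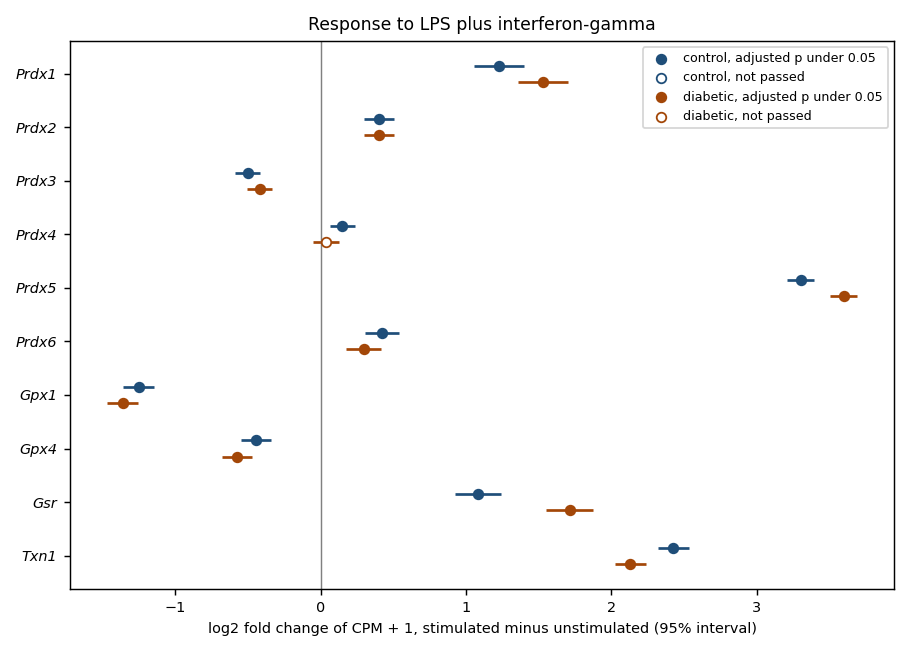
Log2 fold change of each member with stimulation in control and diabetic macrophages (log2 of CPM + 1, points, with 95% intervals as bars, 6 libraries per group). Prdx5 stands farthest to the right at 3.30 and 3.60 and Gpx1 farthest to the left at -1.25 and -1.36, while the positive values of Prdx2, Prdx4 and Prdx6 turn negative when libraries are scaled by total reads.

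Both glutathione peroxidases are selenoproteins, in which a TGA codon that elsewhere ends translation is read as selenocysteine, the residue of the active site. The codon is shown in capitals with the coding bases on either side, from GENCODE transcripts (vM21, GRCm38), since it sets Gpx1 and Gpx4 apart from the peroxiredoxins, which use cysteine.
Gpx1, chr9:108339433-108339471, plus strand: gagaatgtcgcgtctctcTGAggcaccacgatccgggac
Gpx4, chr10:80054719-80054757, plus strand: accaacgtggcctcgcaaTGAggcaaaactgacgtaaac
Gpx1 (ENSMUSG00000063856), the main soluble glutathione peroxidase, was at 313, 319 and 337 CPM in unstimulated control and 282, 286 and 330 CPM in unstimulated diabetic libraries. Stimulated control libraries were at 126, 131 and 162 CPM and stimulated diabetic libraries at 101, 114 and 122 CPM. All stimulated libraries lay below all unstimulated ones, and in stimulated cells every diabetic library lay below every control library. Gpx1 fell by 1.25 ± 0.05 in control and by 1.36 ± 0.05 in diabetic cells (adjusted p = 1.5e-19 and 2.0e-20). It was lower in stimulated diabetic than in stimulated control cells (-0.24 ± 0.05, adjusted p = 0.00027), in the same direction within the first 12 and the last 12 columns at -0.22 and -0.27. Without stimulation the difference was -0.13 ± 0.05 (adjusted p = 0.068). It passed without diabetic library 3 (-0.17, adjusted p = 0.019), the highest of its group.

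Gpx4, which reduces lipid peroxides in membranes and holds back ferroptosis, had the lowest mean level after stimulation per kilobase of annotated exon. It was at 25.9, 26.9 and 28.9 CPM in control and 25.8, 29.2 and 29.9 CPM in diabetic unstimulated libraries. With stimulation it was at 17.4, 19.9 and 23.01 CPM in control and 17.8, 18.8 and 20.2 CPM in diabetic libraries. States did not overlap and phenotypes did. Gpx4 fell by 0.44 ± 0.05 in control and by 0.57 ± 0.05 in diabetic cells (adjusted p = 2.9e-09 and 1.3e-11). With quantile normalization the control change was -0.06 (adjusted p = 0.26). Phenotypes differed by 0.07 ± 0.05 without and -0.06 ± 0.05 with stimulation (95% intervals -0.03 to 0.18 and -0.16 to 0.05).

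Gsr and Txn1 supply the reducing power. Gsr (ENSMUSG00000031584, chr8:33652523-33698163, plus strand), which encodes glutathione reductase, had the largest excess in stimulated diabetic cells and the largest difference in response among the members, with exceptions. The excess of Prdx1 exceeded that of Gsr with quantile normalization (0.93 against 0.81) and within the last 12 columns (0.95 against 0.88), and with quantile normalization the difference in response was 0.45 for Prdx5 and 0.44 for Gsr. Control libraries were at 29.5, 31.0 and 33.4 CPM without and 54.6, 65.9 and 80.7 CPM with stimulation. Diabetic libraries were at 34.7, 38.1 and 46.9 CPM without and 117, 129 and 143 CPM with stimulation. In both states all diabetic libraries were above all control libraries, narrowly at rest and by a wide gap after stimulation. The excess was 0.30 ± 0.08 without stimulation (adjusted p = 0.0059) and 0.93 ± 0.08 with it (adjusted p = 1.1e-09). At rest it did not pass within the last 12 columns (0.33, adjusted p = 0.070). Gsr rose by 1.08 ± 0.08 in control and by 1.71 ± 0.08 in diabetic cells (adjusted p = 3.9e-13 and 1.5e-17), and the responses differed by 0.63 ± 0.11 (adjusted p = 0.00011), at 0.71 within the first 12 and 0.55 within the last 12 columns (adjusted p = 0.00012 and 0.025).

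Txn1 (ENSMUSG00000028367, chr4:57943373-57956411, minus strand), the cytosolic thioredoxin that reduces peroxiredoxins, was higher in diabetic cells at rest. It was at 123, 131 and 139 CPM in control and 150, 156 and 183 CPM in diabetic unstimulated libraries, without overlap (0.32 ± 0.05, adjusted p = 5.0e-05). After stimulation control libraries were at 653, 691 and 803 CPM and diabetic libraries at 667, 718 and 748 CPM. These ranges overlapped almost wholly, and the difference was 0.02 ± 0.05 (95% interval from -0.09 to 0.13). It was 0.13 when scaled by total reads and 0.16 with quantile normalization, which both passed (adjusted p = 0.035 and 0.027), and -0.04 with median-of-ratios scaling. Txn1 rose by 2.43 ± 0.05 in control and by 2.13 ± 0.05 in diabetic cells (adjusted p = 1.9e-26 and 4.9e-25). The response was smaller in diabetic cells by -0.30 ± 0.07 (adjusted p = 0.0030), and within the first 12 columns by -0.19, which did not pass (adjusted p = 0.099).

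**Figure D4:**
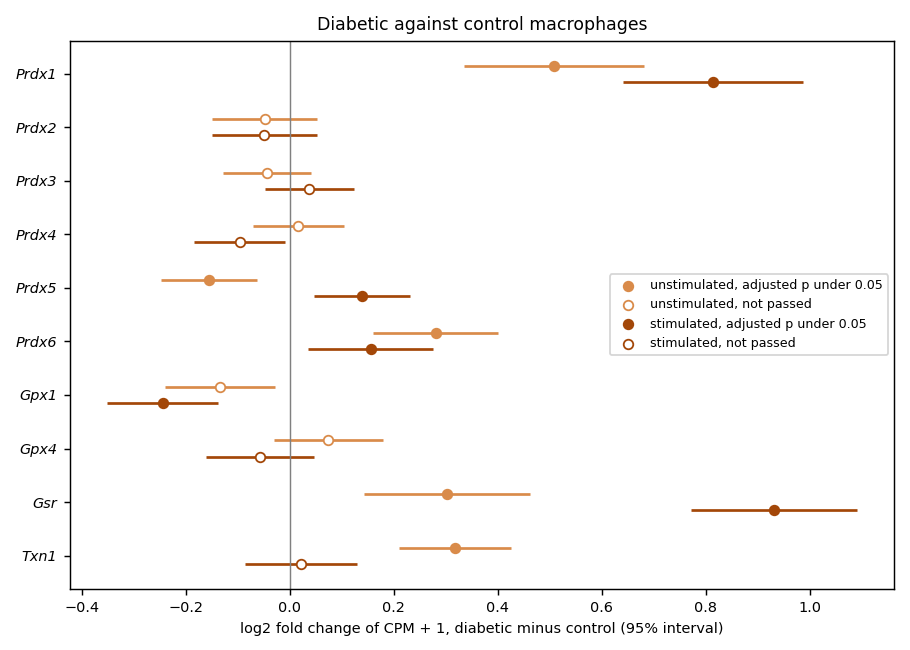
Difference between diabetic and control macrophages for each member without and with stimulation (log2 of CPM + 1, points, with 95% intervals as bars, 6 libraries per group). Gsr moves from 0.30 to 0.93 and Prdx1 from 0.51 to 0.81 with stimulation, and Txn1 moves from 0.32 to 0.02.

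The partners of the peroxiredoxins among 18 tested thioredoxin and glutaredoxin genes (19 listed) differed less evenly. In unstimulated diabetic cells 4 were higher and 2 lower, where 9.16% of all genes were higher and 10.2% lower. The median was -0.00, beside -0.00 over all genes. Txnrd1, the reductase of thioredoxin, was higher by 0.43 ± 0.09 (adjusted p = 0.0010) and Srxn1, which repairs overoxidised peroxiredoxins, by 0.43 ± 0.10 (adjusted p = 0.0035), while the glutaredoxin gene Glrx was lower (-0.49 ± 0.08, adjusted p = 8.8e-05). The excess of Srxn1 at rest did not pass within the last 12 columns (0.52, adjusted p = 0.095). After stimulation 6 were higher and 4 lower, where 29.8% of all genes were higher and 21.9% lower, with a median of 0.08 beside 0.03. Stimulated libraries of control mice held Srxn1 at 33.9 to 53.4 CPM and those of diabetic mice at 111 to 155 CPM (1.67 ± 0.10, adjusted p = 7.2e-11), Txnrd1 was higher by 0.95 ± 0.09 (adjusted p = 9.5e-09) and the thioredoxin-like gene Txnl1 by 0.27 ± 0.04 (adjusted p = 3.1e-06). With the stimulus 3 rose and 14 fell in control cells, and 3 rose and 13 fell in diabetic cells (medians -0.51 and -0.41). Of all genes 34.9% rose and 56.4% fell in control and 35.2% and 55.1% in diabetic cells (medians -0.30 and -0.25). The largest of the named changes was that of Sesn1, a sestrin, at -5.57 ± 0.08 and -5.50 ± 0.08. The mitochondrial thioredoxin reductase gene Txnrd2 changed by -1.27 ± 0.06 and -1.03 ± 0.06, Sesn2 by -1.59 ± 0.07 in control cells and the methionine sulfoxide reductase gene Msrb2 by -2.11 ± 0.12 in diabetic cells. Sesn2 and Msrb2 are given for 1 phenotype because only the 3 genes with the smallest p are named in each. The responses differed for 6 of the 18 genes, where those of 32.0% of all genes did. They were higher in diabetic cells for 5, among them Srxn1 (1.24 ± 0.14) and Sesn2 (0.61 ± 0.11), and lower for Txnip, the inhibitor of thioredoxin (-0.65 ± 0.15).

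Among genes for glutathione synthesis and supply, those of both subunits of the synthesis enzyme were higher in diabetic cells in both states. Of 10 tested genes (12 listed) 3 were higher and 1 lower without stimulation (median 0.08), where 19.3% of all genes were called, and 5 were higher and 1 lower with it (median 0.30, beside 0.03 over all genes), where 51.7% were called. Gclc and Gclm encode these subunits, and they were higher by 0.40 ± 0.10 and 0.83 ± 0.13 at rest (adjusted p = 0.0047 and 8.8e-05) and by 1.50 ± 0.10 and 1.43 ± 0.13 with stimulation (adjusted p = 7.2e-11 and 2.3e-08). Slc7a11, the cystine transporter, was higher by 2.17 ± 0.20 with stimulation (adjusted p = 2.4e-08), and its partner subunit Slc3a2 was lower at rest (-0.18 ± 0.04, adjusted p = 0.0031). In the responses 6 of the 10 genes differed, where 32.0% of all genes did. The diabetic response was the higher one for these 6, among them Slc7a11 (1.46 ± 0.29), Gclc (1.10 ± 0.14) and Slc3a2 (0.26 ± 0.06). For Gclc this was a smaller fall and no rise, beside a change of -2.64 in control cells. Within the last 12 columns 2 genes passed in the responses and 1 at rest, where Gclc (0.45) and Slc3a2 (-0.12) did not (adjusted p = 0.062 and 0.30), and the response of Slc7a11 did not pass in a fit weighted by read depth (adjusted p = 0.082). With the stimulus 3 rose and 7 fell in control and 3 rose and 5 fell in diabetic cells. Of all genes 34.9% rose and 56.4% fell in control, and 35.2% and 55.1% in diabetic cells. Slc3a2 rose by 1.35 ± 0.04 in control and 1.60 ± 0.04 in diabetic cells, Slc7a11 by 4.53 ± 0.20 in diabetic cells, Gclc changed by -2.64 ± 0.10 in control cells, and the mitochondrial glutathione carrier gene Slc25a39 by -0.82 ± 0.05 and -0.85 ± 0.05. Slc7a11 and Gclc are given for 1 phenotype because only the 3 genes with the smallest p are named in each.

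Users of glutathione other than Gpx1 and Gpx4, mainly the transferases and further peroxidases, were tested for 16 of 23 listed genes. Listed with them were the glyoxalase genes Glo1 and Hagh, which are neither. In diabetic cells 4 were higher and none lower at rest (median 0.11), where 9.16% of all genes were higher and 10.2% lower. Among the 4 were Gstm1 (0.39 ± 0.05, adjusted p = 4.1e-06), Mgst1 (0.62 ± 0.09, adjusted p = 1.5e-05) and Mgst2 (0.68 ± 0.17, adjusted p = 0.0054), the last at 0.51 within the first 12 columns (adjusted p = 0.052). With stimulation 6 were higher and 1 lower (median 0.11), where 29.8% of all genes were higher and 21.9% lower. Among the 6 were Mgst1 (0.55 ± 0.09), Gstm2 (0.56 ± 0.12, but 0.18 to 1.21 over the alternatives tried) and Gstm1 (0.24 ± 0.05). With the stimulus 34.9% of all genes rose and 56.4% fell in control, and 35.2% and 55.1% in diabetic cells. Of the 16 genes here 1 rose and 11 fell in control and 1 rose and 12 fell in diabetic cells. The gene that rose was Gstt1 (2.66 ± 0.09 in both), and Hagh (-1.53 ± 0.07 and -1.45 ± 0.07) and Gstz1 (-1.31 ± 0.06 and -1.14 ± 0.06) fell. Over the alternatives tried the rise of Gstt1 ran from 1.21 to 4.67 in control and from 1.18 to 4.83 in diabetic cells. In the response 1 gene passed, where 32.0% of all genes did. It was Gsto1 (-0.19 ± 0.07, adjusted p = 0.043), and this call was lost without any one of 13 of the 24 libraries (adjusted p up to 0.083), within the first 12 and within the last 12 columns (0.21 and 0.17) and by total reads (0.24).

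Catalase and the superoxide dismutases act beside the peroxiredoxins on peroxide and superoxide. Cat was higher in diabetic cells by 0.47 ± 0.06 at rest and 0.46 ± 0.06 with stimulation (adjusted p = 5.6e-07 and 2.0e-07), and Sod2 by 0.17 ± 0.04 and 0.12 ± 0.04 (adjusted p = 0.0040 and 0.014). For Sod2 the difference at rest did not pass within the first 12 columns (0.07, adjusted p = 0.41), and that with stimulation was 0.07 under median-of-ratios scaling (adjusted p = 0.19) and 0.08 within the last 12 columns (adjusted p = 0.34). The other 2 of 4 tested genes did not pass, where 19.3% of all genes were called at rest and 51.7% with stimulation. With the stimulus Sod2, the mitochondrial dismutase, rose by 4.79 ± 0.04 in control and 4.75 ± 0.04 in diabetic cells and Cat fell by 1.69 ± 0.06 and 1.70 ± 0.06. Ccs, the copper chaperone, was at -0.42 ± 0.05 and -0.43 ± 0.05, but at 0.06 and -0.00 with quantile normalization. The responses of the 4 genes differed between phenotypes by -0.04 to -0.00 and did not pass (adjusted p = 0.62 to 0.98).

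The NADPH oxidase makes the superoxide that these enzymes meet. With the stimulus 8 of 9 tested subunits rose and 1 fell in each phenotype. Of all genes 34.9% rose in control and 35.2% in diabetic cells. Cybb was at 2.27 ± 0.05 in control and 2.24 ± 0.05 in diabetic cells, Nox1 at 2.58 ± 0.10 and 2.72 ± 0.10, and Ncf1 at 1.28 ± 0.04 and 1.02 ± 0.04, the last at -0.06 in diabetic cells with quantile normalization. In diabetic cells the proton channel gene Hvcn1 was higher at rest (0.37 ± 0.09, adjusted p = 0.0040) and with stimulation (0.72 ± 0.09, adjusted p = 5.9e-07), while Ncf1 (-0.21 ± 0.04, but -0.06 and not passing with quantile normalization) and Rac2 (-0.28 ± 0.05) were lower with stimulation. At rest Hvcn1 did not pass within the first 12 columns (0.22, adjusted p = 0.10), and the 1 subunit called at rest became 3 by total reads and 6 with quantile normalization. Of all genes 19.3% were called at rest. The responses, which differed for 32.0% of all genes, differed for Ncf1 (-0.26 ± 0.05), which did not pass within the first 12 columns (-0.16, adjusted p = 0.09998). Those of Hvcn1 (0.35 ± 0.13) and Rac2 (-0.19 ± 0.07) passed too, but were at 0.09 and -0.08 with quantile normalization (adjusted p = 0.68 and 0.37) and were lost within the first 12 and within the last 12 columns and without any one of 16 and 14 of the 24 libraries.

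The 8 genes that make selenoproteins, and so bear on Gpx1 and Gpx4, mostly fell with the stimulus. Of all genes 56.4% fell in control and 55.1% in diabetic cells. In each phenotype 7 fell and Secisbp2l, a relative of the protein that binds the selenocysteine insertion element, rose (1.31 ± 0.05 in control and 1.23 ± 0.05 in diabetic cells). Pstk, a kinase of selenocysteine tRNA, changed by -1.80 ± 0.08 and -1.63 ± 0.08, Sepsecs by -1.20 ± 0.07 in control and the elongation factor gene Eefsec by -0.91 ± 0.07 in diabetic cells. In diabetic cells Scly was higher at rest (0.13 ± 0.05, adjusted p = 0.039), a call that was lost without any one of 7 of 12 libraries (adjusted p up to 0.12) and within the first 12 and the last 12 columns (0.22 and 0.28). With stimulation 3 were higher and 1 lower, where 29.8% of all genes were higher and 21.9% lower. Sephs2, which makes the selenium donor, was higher by 0.73 ± 0.09 (adjusted p = 3.0e-07), Sepsecs by 0.34 ± 0.07 and Trnau1ap by 0.14 ± 0.05 (adjusted p = 0.025). Trnau1ap was lost under median-of-ratios scaling (0.09, adjusted p = 0.15), with quantile normalization (0.05, adjusted p = 0.46), within the first 12 columns, as was Sepsecs, and without any one of 3 of 12 libraries. Where 32.0% of all genes differed in response, the same 3 genes did, by 0.50 ± 0.12, 0.29 ± 0.10 and 0.23 ± 0.07. Of these, 1 remained under median-of-ratios scaling, with quantile normalization and within the first 12 columns, in each case Sephs2, and within the last 12 columns 1 remained, Sepsecs.

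**Figure D5:**
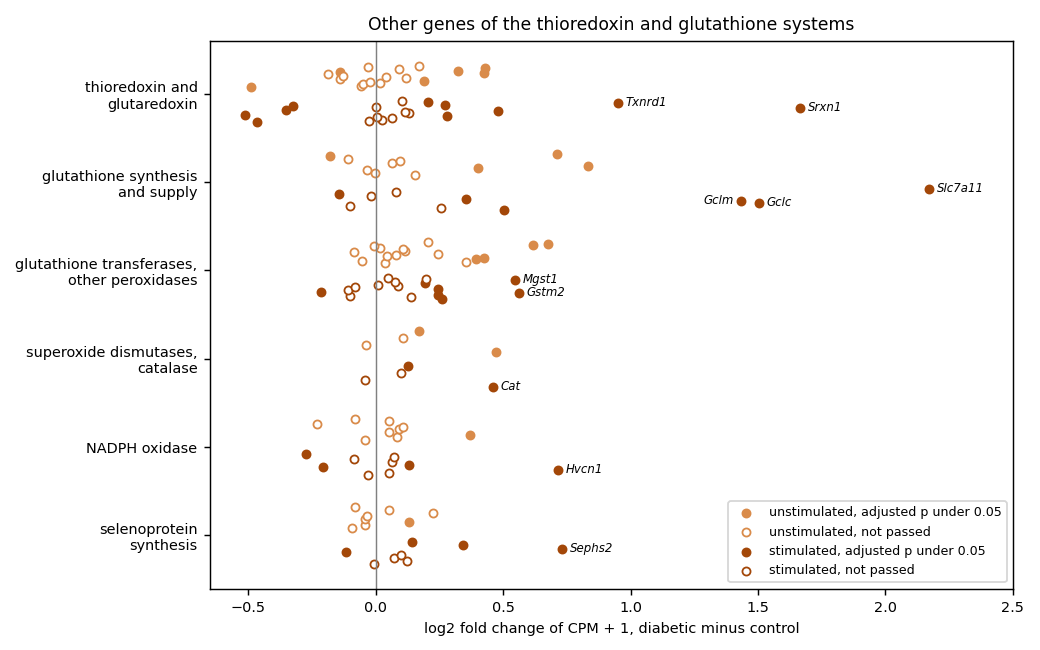
Difference between diabetic and control macrophages for every tested gene of 6 lists of the same pathways (log2 of CPM + 1 on the horizontal axis, 1 row per list, each dot a gene, filled where it passed the test), without and with stimulation. Srxn1, Gclc, Gclm and Slc7a11 reach 1.67, 1.50, 1.43 and 2.17 with stimulation, and most other genes lie near 0.

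Across the 24 libraries the gene most like each member was sought by Pearson's r of log2 of CPM + 1, as a description of libraries that share the stimulus. Gsr was most like Slc7a11 (0.986) and Prdx1 most like F10 (0.986). For Prdx5 it was Parp8 (0.999), for Txn1 Tmco3 (0.998), for Gpx1 Rgs10 (0.995), for Prdx3 Prmt5 (0.983), for Gpx4 Fuca1 (0.978) and for Prdx2 Elob (0.970). Prdx6, with Esd (0.938), and Prdx4, with BC022687 (0.801), had no gene above 0.95. The number of genes above 0.95 was 2216 for Prdx5, 2057 for Gpx1, 2047 for Txn1 and 1918 for Prdx3, against 357 for Gpx4, 103 for Gsr, 65 for Prdx1 and 39 for Prdx2.

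Reads of some members could be split with near-identical copies. Copies of at least 200 bases at 90% identity or more were found for 5 members besides Prdx5, whose match is the shared stretch with Trmt112. The largest measured copy level was that of Gpx4-ps2, at 1.58% of the mean level of Gpx4, and the copies of Prdx1 amounted to 0.0863% of it, while those of Prdx2, Prdx6 and Txn1 were not analysed here.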

How the data were processed

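A mirVana kit was used for RNA and a TruSeq Stranded mRNA kit for the libraries, per the labels' protocols, although other labels name genomic DNA as the material. The submitters' processing notes name STAR 2.5.3a, R 3.3.3 and edgeR 3.16.5 and the builds GRCm38 and mm10. Neither the counting tool nor its use of strand was given in the sources used here. Values deposited by the authors are log2 CPM with a prior of 0.25 reads, as their steps show. Zeros share the value -6.67, and CPM was recovered by taking this floor away after undoing the logarithm, whereupon 100% of values were whole reads within 0.01 read. The authors' scaling factors lay between 1.23 and 1.29 for unstimulated libraries and between 0.73 and 0.83 for stimulated ones.

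Genes that reached 1 CPM in 6 or more libraries entered limma 3.58.1 (intensity trend, robust) in R 4.3.3 on log2 of CPM + 1, in a single model of the 4 group means. P-values are two-sided and adjusted by Benjamini-Hochberg over all tested genes, with a threshold of 0.05. The fit was tested on simulated data. Named genes are all members, up to 3 genes of each pathway list with the smallest p among those past the threshold in each of 5 comparisons, and the gene most correlated with each member. The members and the lists were chosen with earlier results of these data known. Mouse identity comes from the series' design text, which has each sample divided into both cultures. Deviations of a mouse's libraries from the group means had a mean correlation of 0.12 (-0.08 to 0.40), and 5 of 12 mice exceeded 0.1. Between phenotypes the replicate number is a name. The first 12 and the last 12 columns of the table each hold 3 mice of each phenotype in both states and may be batches. Within groups r was 0.994 to 0.998, and chi-square over its degrees of freedom was never under 2.96 between libraries, so none was deposited again. Exon lengths come from GENCODE vM21. Python 3.11.15 (pandas 2.3.3, numpy 2.4.6) was used for tables and matplotlib 3.10.9 for figures.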

Additional observations from a re-analysis of the deposited data

Results flagged for a closer look

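In 5 of 40 sets of 6 libraries (10 genes in 4 groups) 1 library stood apart from the others by more than a gap test allows, and chance alone gives about 1 in 20. Stimulated control library 6 was the highest for Prdx2 at 183.7 CPM (next 154 CPM), for Gpx1 at 161.8 CPM (next 132 CPM) and for Txn1 at 802.6 CPM (next 709 CPM). It was the highest of its group for 9 of the 10 members, and how often it was so over all genes was not tested. Unstimulated diabetic library 3 was the highest for Gpx1 at 330.2 CPM (next 294 CPM), and unstimulated diabetic library 1 the lowest for Gpx4 at 25.8 CPM (next 28.4 CPM). The response to the stimulus differed between diabetic and control cells by the test of the difference itself for Prdx5 (0.29), Gsr (0.63) and Txn1 (-0.30).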

How the results depend on the processing

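Of 1460 repeats of the members' results, 1376 kept direction and side of the threshold, 18 lost and 30 gained the call, and 36 turned. The count of members called was 8 to 10 of 10 for each response, 3 to 6 and 4 to 7 between phenotypes without and with stimulation and 2 to 4 for the difference in response. Only 1 of these counts moved by over 1.5 times, from 5 to 3 between unstimulated phenotypes within the last 12 columns. Leaving out 1 library gave 10, 9, 5 to 6, 4 to 6 and 3 to 4. The cause of the changes that follow was not tested.

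Scaling by total reads turned the responses of Prdx2 (-0.30 in control, -0.23 in diabetic cells), Prdx4 (-0.55, -0.59) and Prdx6 (-0.28, -0.33), the differences in stimulated cells of Prdx2 (0.055), Prdx4 (0.0078) and Gpx4 (0.042), and the difference in response of Prdx2 (0.074). Quantile normalization turned the responses of Prdx2 (-0.11, -0.060) and Prdx4 (-0.11, -0.19), the differences in stimulated cells of Prdx2 (0.015) and Prdx3 (-0.0026), and the difference in response of Prdx2 (0.045). Median-of-ratios scaling turned Prdx3 (-0.017) and Txn1 (-0.035) in stimulated cells, and array weights turned the difference in response of Prdx2 (0.053). Within the first 12 columns Prdx4 at rest (-0.011) and the difference in response of Prdx2 (0.072) turned, and within the last 12 the diabetic response of Prdx4 (-0.030) and Prdx2 at rest (0.051). Without single libraries the difference in response of Prdx2 ran from -0.027 to 0.051, and its difference in stimulated cells from -0.072 to 0.0031, the last without stimulated control library 6. The all-gene median moved with scaling by 0.30 (median-of-ratios), -0.62 (total reads) and 0.19 (quantile) in the control response and by 0.26, -0.57 and 0.16 in the diabetic response.

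All genes called between unstimulated phenotypes were 2265, but 3502 with array weights and 1506 within the first 12 and 861 within the last 12 columns. For the difference in response they were 3747, and 2440 and 1642 within these columns. By total reads 2300 genes rose in control and 2371 in diabetic cells, against 4081 and 4117.

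With the mouse as a fixed replicate block Prdx1 passed in the difference in response (adjusted p = 0.0022; as a random block 0.039), and no other member's call changed in the responses or their difference. Between phenotypes the replicate number is only a number. Same-numbered libraries there correlated at a mean r of 0.0051 (unstimulated) and 0.037 (stimulated), and with that block Gpx1 passed at rest (adjusted p = 0.016). P-values rest on 6 mice per phenotype and on a spread shared by all groups.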
